A study of Mus musculus with 6 samples.

Results

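Imprinted genes were followed by RNA sequencing in mouse testes of the embryonic stage E12.5, in 3 control and 3 Ppp1r3c cKO (conditional knockout) samples. The set was a fixed list of 38 coding and noncoding imprinted genes, taken by symbol, out of 24470 genes in the table. All 38 were found by their symbol. Control embryos were Ppp1r3c f/f, which means that both copies of the gene carried loxP sites, and had no Cre. The cKO embryos carried the same floxed alleles together with Sf1-Cre, so the control and cKO groups differed by the transgene. Sf1-Cre is driven by regulatory sequence of Nr5a1, also called Sf1, which is active in somatic cells of the gonad and in other steroidogenic tissue, so germ cells were not its target. The floxed and Cre lines were kept on a C57BL/6 background. Each sample pooled 2 gonad pairs, so the spread between samples is a spread between pools and not between single embryos.

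An imprinted gene is transcribed mainly from 1 parental copy, because a control region was methylated in either the egg or the sperm and somatic cells keep that mark. Many paternally expressed genes favour fetal growth and many maternally expressed genes restrain it, and the genes lie in clusters that share a control region and often a long noncoding RNA. Germ cells that reach the gonad lose these marks around this stage, while the supporting, interstitial and endothelial cells of the testis keep them. The counts added both parental copies together, so they measured how much RNA a gene made and not which copy made it. In whole testes, fewer cells of a type and less RNA per cell cannot be told apart.

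Library totals ran from 16139487 to 44145158 counts, with control replicate 1 the shallowest. Ppp1r3c, which encodes a glycogen-targeting subunit of protein phosphatase 1, was at 24.4, 22.1 and 22.9 CPM (counts as a share of the scaled library total) in control and at 4.71, 5.37 and 5.96 CPM in cKO testes, as the labels imply (log2 fold change -2.11, SE 0.111, edgeR adjusted p 0.000126). The library labelled cKO replicate 3 stood apart from the other 5. It held 379.2 CPM of Xist, the RNA that coats the inactive X chromosome of female cells, against 0.369 to 1.0 CPM elsewhere, and 50.9 CPM of Fst, a pre-granulosa gene of the fetal ovary, against 0.366 to 2.02 CPM. Its 4 Y-linked genes summed to 219.8 CPM against 257.8 to 277.1 CPM in the others. The part of this library in each result was not tested beyond leaving it out, so values without it are given beside those with all samples.

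The deposited table places the 38 genes on 9 chromosomes of mouse build mm10, most of them in clusters. RefSeq promoter windows of build GRCm38.p6, each running from 250 bases before a transcript start to 50 bases after it, were matched by symbol for 28 of them, with 43 windows in all. Peg10, Sgce, Cdkn1c, H19, Impact, Rtl1, Dcn, Peg13, Trappc9 and Kcnk9 had none. The windows were searched on both strands for TGCCGC, the hexamer bound by ZFP57, a zinc finger protein that guards methylated imprints. The reverse complement reads GCGGCA. At least 1 match stood in 9 of the 28 genes (32.1%), against 13.1% of 27025 genes with windows, and in 10 of the 43 windows (23.3%) against 11.6% of all 32851 windows. The 9 genes were Nnat, Mest, Nap1l5, Zim1, Snrpn, Igf2, Plagl1, Grb10 and Meg3. Windows of a gene can overlap, and the Mest windows from 30737800 and from 30737803 hold the same hexamers but are counted separately. The median number of CpG dinucleotides in a gene's richest window was 15 in the imprinted genes and 8 in all genes. A match describes the letters of a window and nothing more, and DNA methylation was not measured.

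Sequences from 3 promoters are shown because their genes lie at both ends of the order of levels. The first is the whole stretch between the start of Peg3, one of the most abundant imprinted transcripts, and the start of Usp29, a scarce one transcribed the other way. Mest and Nap1l5 are the genes with 2 hexamers in a window, and lay near the top and near the bottom of the order of levels. Capitals mark the hexamer or its reverse complement, the rest is in lower case, and each runs 5′ to 3′ on the strand given. The Peg3-Usp29 interval is chr7:6730420-6730582, read on the minus strand, and holds no hexamer. The Mest stretch is chr6:30737800-30738049 on the plus strand, the 250 bases before an internal start within the gene's span. The Nap1l5 stretch is chr6:58907127-58907376 on the minus strand, the 250 bases before its start, and holds 1 of its window's hexamers.
Peg3-Usp29 interval: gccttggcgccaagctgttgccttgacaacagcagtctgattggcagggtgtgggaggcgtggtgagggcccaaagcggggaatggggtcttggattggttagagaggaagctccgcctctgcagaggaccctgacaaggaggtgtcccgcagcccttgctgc
Mest: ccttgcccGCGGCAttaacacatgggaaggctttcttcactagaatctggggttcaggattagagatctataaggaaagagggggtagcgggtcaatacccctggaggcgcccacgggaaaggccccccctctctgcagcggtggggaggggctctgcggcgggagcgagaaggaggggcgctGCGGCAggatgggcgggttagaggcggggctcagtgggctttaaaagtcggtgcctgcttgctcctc
Nap1l5: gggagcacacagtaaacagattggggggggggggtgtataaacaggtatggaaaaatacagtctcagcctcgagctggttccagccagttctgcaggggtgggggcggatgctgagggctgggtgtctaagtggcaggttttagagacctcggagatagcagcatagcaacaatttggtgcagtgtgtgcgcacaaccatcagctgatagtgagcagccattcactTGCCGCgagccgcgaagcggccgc

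Some imprinted genes were among the most abundant transcripts of the E12.5 testis. To set genes beside each other, levels were divided by exon length and are given as CPKM, which is CPM per kilobase of exon, averaged over the 3 control samples. H19, a long noncoding RNA, led with 1216 ± 34.5 CPKM (SD, n = 3), above 99.96% of the 15226 tested genes that had a length. Mest, which encodes a hydrolase-like membrane protein, followed at 447.9 CPKM, and Igf2, the fetal insulin-like growth factor, at 366.8 CPKM. Peg3, a zinc finger protein, stood at 195.8 CPKM, Grb10, an adaptor that damps insulin and IGF receptor signalling, at 181.9 CPKM, and Gnas, whose locus encodes the stimulatory G protein alpha subunit, at 123.7 CPKM. Among these 6 genes, no control range overlapped that of the next in order. Gnas and Nnat (113.9 CPKM), a small membrane proteolipid, overlapped, as did Nnat and Cdkn1c (93.08 CPKM), an inhibitor of cyclin-dependent kinases. Peg10, a gag-pol protein of retrotransposon origin, came next at 74.48 CPKM and Plagl1, a zinc finger transcription factor, at 61.11 CPKM, each clear of its neighbours above.

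Further down, the order was less certain. Of 36 neighbouring pairs among the 37 genes with any control count, 19 had overlapping control ranges. Dlk1 (53.0 CPKM) overlapped both Ndn (54.74 CPKM) above it and Igf2r (45.87 CPKM) below it. Dcn (31.87 CPKM), Meg3 (29.89 CPKM), Zim1 (24.28 CPKM) and Rian (22.94 CPKM) each overlapped the next in this order, ending with Asb4 (21.65 CPKM). The exon length of Rian was taken from all its annotated transcripts, unlike that of the other genes, so its place is less sure. Asb4 was clear of Sgce (17.4 CPKM) below it. The plot of levels by gene shows this long middle stretch, where control and cKO points lie close together, and the drop beyond it. At the foot stood Kcnq1ot1 (0.3623 CPKM over an 83.44 kb transcript), Slc22a18 (0.2314 CPKM), Rtl1 (0.2218 CPKM) and Nap1l5 (0.1617 CPKM). The length matters most for Kcnq1ot1, the RNA that silences its neighbours on the paternal copy: at 30.2 ± 6.07 CPM (SD, n = 3) it drew many reads in total and few per kilobase.

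**Figure D1:**
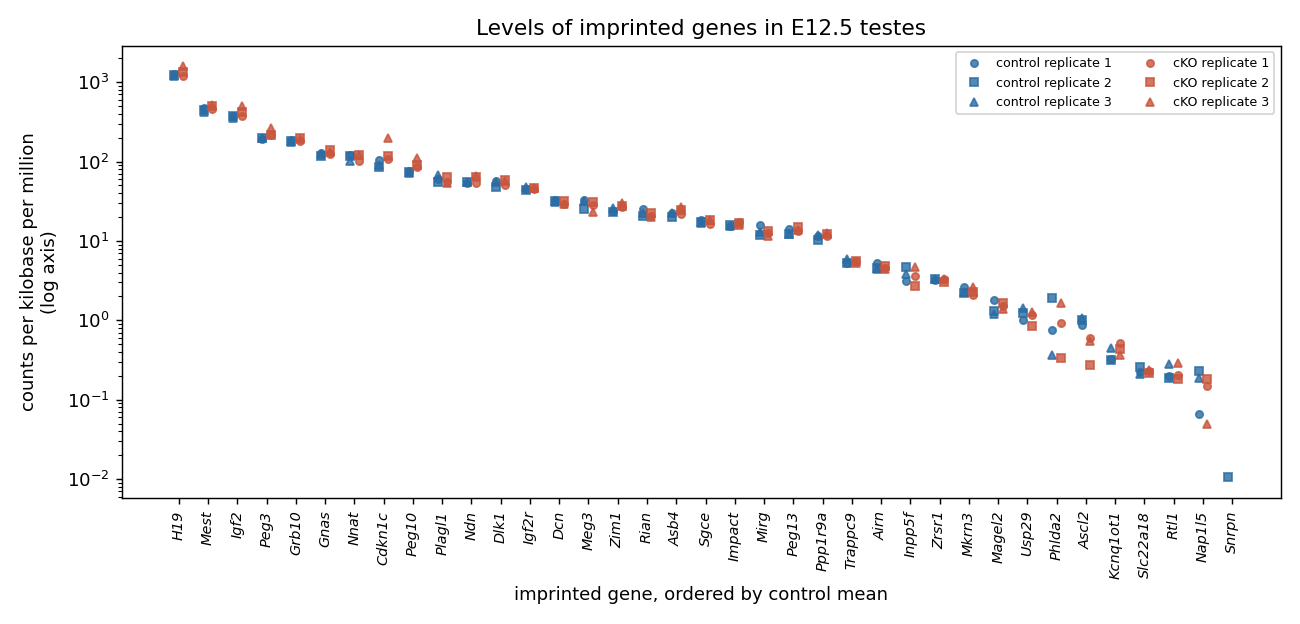
Level of each imprinted gene in every sample, in CPKM (CPM per kilobase of exon) on a log axis, with genes ordered by the control mean. Blue points are the 3 control and red points the 3 cKO samples, with the shape giving the replicate. Values of 0 cannot be drawn on this axis, so Kcnk9 is absent and Snrpn shows 1 point.

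Of the 36 genes that passed the filter on low counts (edgeR's filterByExpr, minimum count 10), 23 lay above the median level of tested genes and 12 above the 90th percentile. A gene passed only where enough samples held it, so these counts leave out 2 genes at the bottom. In the control libraries the 38 genes together took 1.26% to 1.32% of all counts, and H19 with Igf2 alone took 0.457% to 0.484%. In the cKO libraries the 38 genes took 1.29%, 1.42% and 1.52%, and H19 with Igf2 took 0.468%, 0.527% and 0.617%, highest in cKO replicate 3.

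Snrpn and Kcnk9 did not pass the filter. Snrpn, a spliceosome component that is abundant in neurons, held 0, 1 and 0 counts in control and 0 in each cKO library. The table also has a row for Snurf, which is transcribed from the same strand of chromosome 7 and overlaps the Snrpn span (59982502 to 60140219), and it too was 0 in all 6 libraries. In the transcripts used for exon lengths, 216 of the 2152 bp of Snrpn exons overlapped exons of Snurf. The counting tool by default gives a read shared by 2 genes to neither. Whether that set these zeros was not tested, so no level can be read for Snrpn. Kcnk9, a potassium channel known to be imprinted in brain, was at 0 in all 6 libraries, which allows up to 0.0679 to 0.185 CPM depending on the library's depth. These limits cover counting error only.

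Pools differed little for most of the abundant genes. Over the 28 imprinted genes above 10 CPM in control, the median coefficient of variation between control samples was 5.89%, and it was 6.14% over all 10302 tested genes above that level. The tightest was Impact, which shields translation from the GCN2 stress kinase, at 53.1, 54.6 and 53.7 CPM (1.37%). The loosest was Kcnq1ot1 at 27.0, 26.4 and 37.2 CPM (20.1%). Among cKO samples the median was 6.97%, against 5.46% for all such genes, and the loosest was Cdkn1c at 35.6%, where cKO replicate 3 was far above the others. The scarce Phlda2, a placental growth brake, varied most between pools, with 9, 62 and 11 counts in control and 27, 9 and 40 counts in cKO libraries.

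Between cKO and control testes, no imprinted gene passed the main test and most differed by little. edgeR (quasi-likelihood test, adjusted p under 0.05 after Benjamini-Hochberg adjustment over 15577 genes) called 0 of the 36 tested, where it called 0.0385% of all genes. limma-voom also called 0, where it called 0.0449% of all genes. DESeq2 called 1, Peg10, where it called 0.779% of all genes. For 28 of the 36 genes the log2 fold change lay within 0.2 of 0. The share of all tested genes within 0.2 was not worked out, so this count has no background. The median was 0.021 (0.013 without cKO replicate 3) beside -0.0034 over all tested genes, and 21 were above 0, where 49.1% of all genes were.

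At an unadjusted edgeR p under 0.05 there were 6 genes, 16.67% of those tested beside 11.4% of all genes. Igf2, Peg3, Zim1, Peg10 and Cdkn1c were higher in cKO (5.56% of all genes) and Ascl2 was lower (5.8% of all genes). Their adjusted p was 0.377, or 0.404 for Igf2. The 5 that were higher all had their highest value of the 6 samples in cKO replicate 3. Without that library 6 genes again lay under 0.05, beside 7.83% of all genes: 5 of them were in both lists, Igf2 was replaced by Kcnq1ot1, and none was called (0.0189% of all genes). The cKO values all lay above the control values for 6 genes, Impact besides the 5 above, beside 8.42% of all genes, and all below them for Ascl2, beside 7.17%. Without cKO replicate 3 the groups were apart for 6 higher (11.9% of all genes) and 1 lower (10.8%). On all samples, exact two-sided permutation tests of these genes each gave p 0.1, and no smaller p can come from groups of 3.

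**Figure D2:**
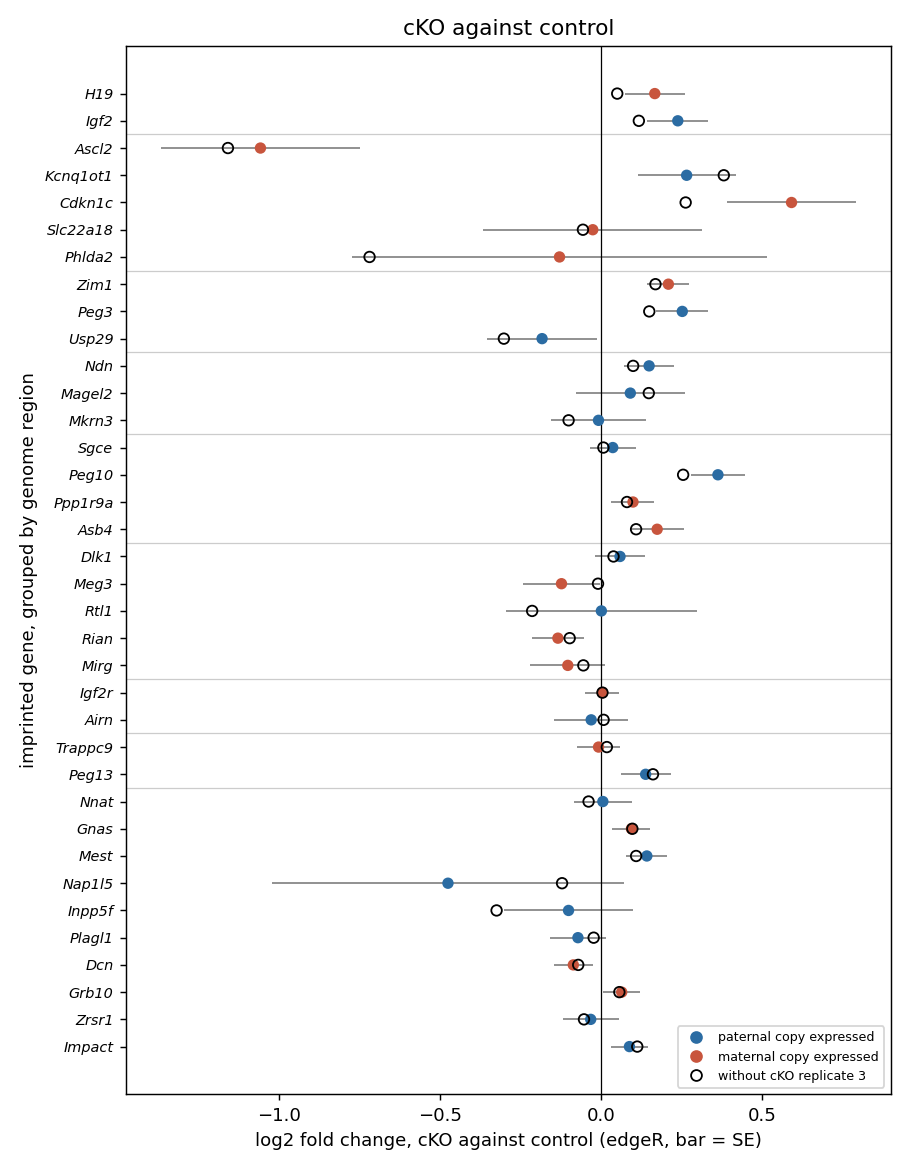
Log2 fold change of cKO against control testes for the 36 tested imprinted genes, grouped by genome region (filled points, edgeR, bar = SE), with open circles for the fit without cKO replicate 3. Most points sit within 0.2 of 0, and the open circles of Igf2, H19, Peg3, Peg10 and Cdkn1c lie closer to 0 than the filled ones, while those of Ascl2 and Kcnq1ot1 lie farther from it.

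Genes were classed by the parental copy known to be expressed, from general knowledge, and the copy used in these testes was not measured. Gnas, whose count also joins transcripts that are not imprinted, was classed as maternally expressed. The 20 tested paternally expressed genes had a median log2 fold change of 0.048, with 13 above 0. They ranged from -0.48 (Nap1l5) to 0.36 (Peg10). The 16 maternally expressed genes had a median of -0.0019, with 8 above 0 and a range from -1.06 (Ascl2) to 0.59 (Cdkn1c). Nap1l5 rests on few counts and stood at -0.12 without cKO replicate 3. Without that library the medians were 0.023 and 0.011, the paternally expressed genes ran from -0.32 (Inpp5f) to 0.38 (Kcnq1ot1) and the maternally expressed ones from -1.16 (Ascl2) to 0.26 (Cdkn1c). Genes at an unadjusted p under 0.05 were split 3 and 3 between these classes.

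Igf2 and H19 share enhancers at the end of chromosome 7 (142650768 to 142666816 for Igf2 and 142575530 to 142578146 for H19, both on the minus strand) and are expressed from opposite copies. Igf2 was at 1950, 1948 and 1876 CPM in control and at 1981, 2194 and 2637 CPM in cKO testes. All cKO values lay above the control values, cKO replicate 1 only just and cKO replicate 3 by far. The log2 fold change was 0.24 (SE 0.0943, edgeR p 0.0313, adjusted p 0.404), and 0.12 (p 0.115) without cKO replicate 3. H19 was at 2858, 2776 and 2701 CPM in control and at 2724, 3029 and 3605 CPM in cKO testes, with overlapping groups (log2 fold change 0.17, SE 0.0936, edgeR p 0.107, adjusted p 0.520, and 0.05 without cKO replicate 3).

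For both genes cKO replicate 3 was the highest sample and cKO replicate 2 the next. Per length, H19 exceeded Igf2 by 3.37, 3.27 and 3.31 times in control and by 3.16, 3.17 and 3.14 times in cKO testes. This ratio was lower in every cKO sample, cKO replicate 3 included. It is 1 of 8 ratios between neighbouring genes that were looked at, given as a description with no test, and the groups did not overlap for 2 of them.

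The other such ratio was that of Peg10 to Sgce, on chromosome 6 (Peg10 4747306 to 4760517 on the plus strand, Sgce 4674350 to 4747204 on the minus strand). The paternally expressed pair runs in opposite directions from starts 102 bp apart. Peg10, which is needed for the placenta, was at 511.7, 497.3 and 480.6 CPM in control and at 573.0, 611.6 and 731.1 CPM in cKO testes. Every cKO sample lay above every control sample, and the mean was 28.6% higher. The log2 fold change was 0.36 (SE 0.0851, edgeR p 0.00191, adjusted p 0.377), and it was 0.26 (p 0.00309) without cKO replicate 3. DESeq2 gave it an adjusted p of 0.00745, which rose to 0.0987 without cKO replicate 3 and to 0.112 without control replicate 2. With each of the other 4 samples left out in turn, DESeq2 still called it.

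Sgce, which encodes epsilon-sarcoglycan, was at 34.1, 32.4 and 31.4 CPM in control and at 31.1, 34.4 and 34.8 CPM in cKO testes. The groups overlapped (log2 fold change 0.04, SE 0.0709, edgeR adjusted p 0.879, and 0.01 without cKO replicate 3). Per length, Peg10 exceeded Sgce by 4.22, 4.31 and 4.31 times in control and by 5.18, 5.01 and 5.92 times in cKO testes. The ratio was higher in all 3 cKO samples, and whether the make-up of the pools had a part in it was not tested. The maternally expressed genes of the cluster, Asb4 (a ubiquitin ligase adaptor) and Ppp1r9a (the actin-binding neurabin), had log2 fold changes of 0.17 and 0.10, at adjusted p-values of 0.456 and 0.590 (edgeR), which were 0.11 and 0.08 without cKO replicate 3.

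The Peg3 cluster lies near the other end of chromosome 7 (Zim1 6675443 to 6696432, Peg3 6705960 to 6730419, Usp29 6730583 to 6967219). Peg3 was at 1267, 1324 and 1301 CPM in control and at 1433, 1445 and 1758 CPM in cKO testes, so that the groups did not overlap. The log2 fold change was 0.25 (SE 0.0809, edgeR p 0.0117, adjusted p 0.377), and 0.15 (p 0.0330) without cKO replicate 3. Zim1, a maternally expressed zinc finger gene, was at 83.0, 81.4 and 90.6 CPM in control and at 95.1, 96.2 and 103.8 CPM in cKO testes. Here too every cKO sample was higher, and the log2 fold change was 0.21 (SE 0.0649, edgeR p 0.00992, adjusted p 0.377), or 0.17 (p 0.0417) without cKO replicate 3.

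Usp29, a deubiquitinase that starts at the far end of the interval printed above, was at 11.6, 14.1 and 16.4 CPM in control and at 13.3, 9.54 and 14.4 CPM in cKO testes. The groups overlapped (log2 fold change -0.18, SE 0.171, edgeR adjusted p 0.703, and -0.30 without cKO replicate 3). Per length, Peg3 exceeded Usp29 by 136.6 to 188.2 times in control and by 184.7 to 260.5 times in cKO testes, with overlapping ranges. It was the largest of the 8 ratios looked at, in every sample.

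**Figure D3:**
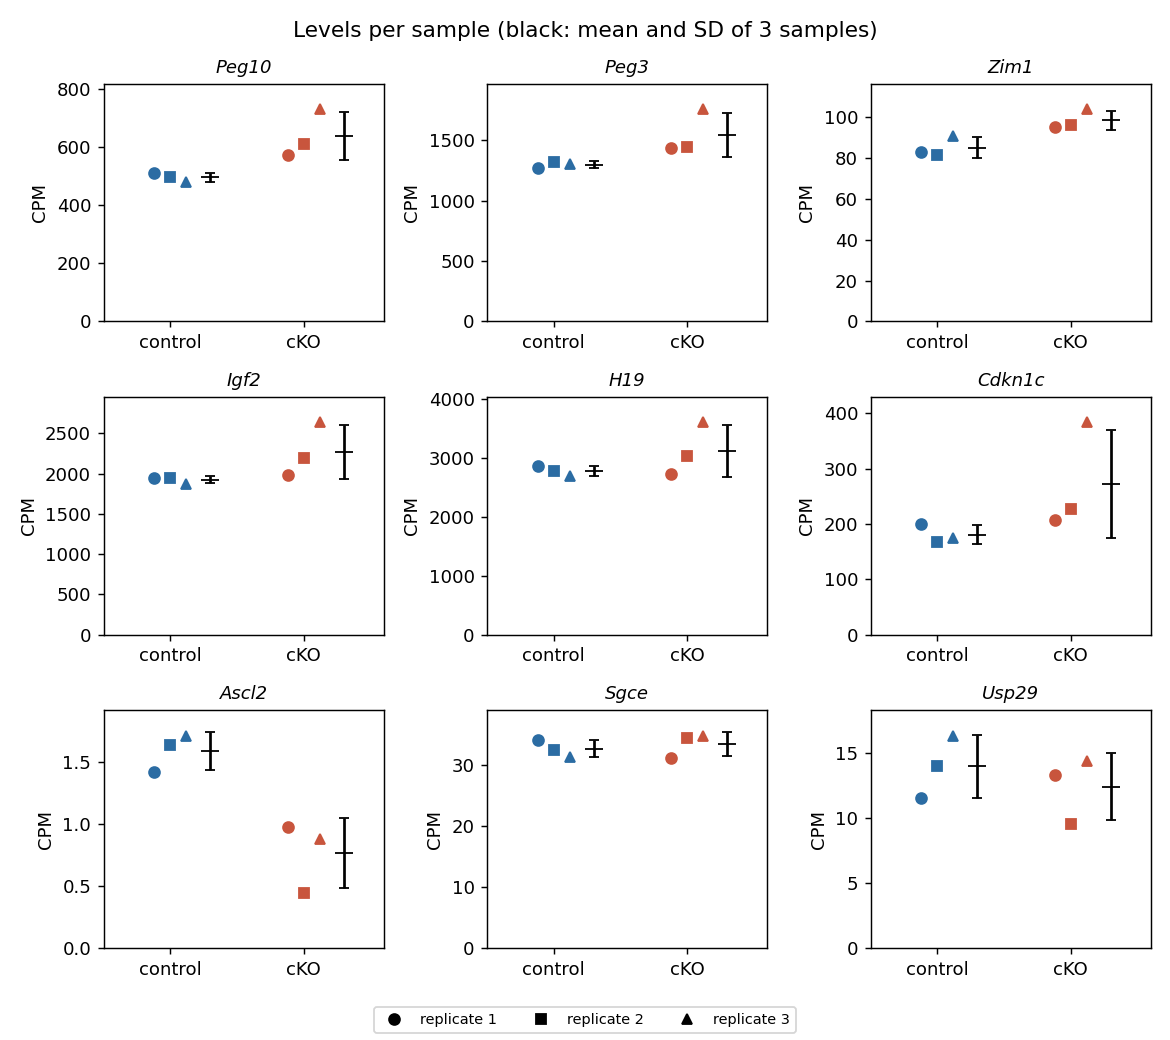
Levels in each sample, in CPM from 0, for 9 imprinted genes in 3 control (blue) and 3 cKO (red) testes, with the mean and SD of each group in black. Peg10, Peg3, Zim1, Igf2, Cdkn1c and Ascl2 do not overlap between groups, H19, Sgce and Usp29 do, and cKO replicate 3 (triangle) is the highest point in the panels of Peg10, Peg3, Zim1, Igf2, H19, Cdkn1c and Sgce.

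Among the genes that restrain growth, Cdkn1c (chromosome 7, 143458339 to 143461050) was at 200.5, 168.0 and 173.8 CPM in control and at 206.5, 226.4 and 383.3 CPM in cKO testes. The groups did not overlap, but the mean cKO level rested on cKO replicate 3. The log2 fold change was 0.59 (SE 0.1995, edgeR p 0.0152, adjusted p 0.377), and 0.26 (p 0.0135) without that library. Grb10 was at 965.1, 924.0 and 910.1 CPM in control and at 923.1, 1017 and 985.7 CPM in cKO testes, and Igf2r, the receptor that clears IGF2, at 400.5, 394.5 and 427.9 CPM and 400.3, 417.4 and 408.7 CPM. Both pairs of groups overlapped, with log2 fold changes of 0.06 (SE 0.0569) and 0.00 (SE 0.0525), and the same values to that precision without cKO replicate 3. Ndn, the growth suppressor necdin, was 0.15 higher on the log2 scale (SE 0.0783, edgeR adjusted p 0.493), and 0.10 higher without cKO replicate 3.

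Ascl2 (chromosome 7, 142966822 to 142969264), a basic helix-loop-helix factor known from placenta and intestinal stem cells, was the 1 tested gene of the list that was lower in all cKO samples. It held 23, 72 and 70 counts in control and 39, 16 and 29 counts in cKO libraries, which is 1.42, 1.63 and 1.71 CPM against 0.972, 0.445 and 0.877 CPM. Every cKO level was below every control level, though the counts behind them were few. The log2 fold change was -1.06 (SE 0.309, edgeR p 0.00719, adjusted p 0.377), and -1.16 (p 0.0106) without cKO replicate 3. Kcnq1ot1, from the same domain, was at 27.0, 26.4 and 37.2 CPM in control and at 42.6, 36.4 and 30.4 CPM in cKO testes. These overlapped, with a log2 fold change of 0.27 (p 0.114) that was 0.38 (p 0.0291) without cKO replicate 3. Phlda2 (-0.13, SE 0.646) and Slc22a18 (-0.03, SE 0.341), the other genes of the domain, were too scarce to place on either side, with -0.72 and -0.06 when cKO replicate 3 was left out.

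Of the remaining abundant genes, Mest was at 1300, 1256 and 1175 CPM in control and at 1284, 1397 and 1435 CPM in cKO testes. The groups overlapped at cKO replicate 1 and the log2 fold change was 0.14 (SE 0.0639, edgeR p 0.0520, adjusted p 0.441), or 0.11 without cKO replicate 3. Gnas was at 1206, 1111 and 1190 CPM in control and at 1194, 1307 and 1244 CPM in cKO testes (log2 fold change 0.09, SE 0.0589, and 0.10 without cKO replicate 3). The Gnas count joins transcripts that are imprinted with others that are not, so it cannot speak for any one of them. Nnat was at 162.3, 157.2 and 136.0 CPM in control and at 134.0, 161.2 and 161.6 CPM in cKO testes, and Plagl1 at 320.4, 291.7 and 352.2 CPM against 291.9, 340.8 and 284.9 CPM. Both overlapped widely, with log2 fold changes of 0.01 (SE 0.0894) and -0.07 (SE 0.0867), or -0.04 and -0.02 without cKO replicate 3.

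The Dlk1-Meg3 cluster on chromosome 12 (109452823 to 109749458) encodes Dlk1, a transmembrane relative of Notch ligands, on the paternal copy and a chain of noncoding RNAs on the maternal one. Dlk1 was at 254 ± 23.1 CPM in control and 264 ± 19.2 CPM in cKO testes (SD, n = 3 each). The noncoding Meg3 was at 507.7, 397.7 and 500.9 CPM in control and at 444.2, 486.5 and 359.9 CPM in cKO testes, and its neighbour Rian, a host of small nucleolar RNAs, at 465.3, 379.2 and 410.2 CPM against 372.4, 408.7 and 361.4 CPM. The ranges overlapped for all of them. Log2 fold changes were 0.06 for Dlk1, -0.12 for Meg3, -0.13 for Rian and -0.10 for Mirg, a microRNA host, with edgeR adjusted p-values from 0.546 to 0.806. Without cKO replicate 3 they were 0.04, -0.01, -0.10 and -0.05 in the same order. Rtl1, a retrotransposon-derived gene made on the other strand from microRNA precursors, stayed between 0.946 and 1.51 CPM in all samples, with a log2 fold change of 0.00 (SE 0.297), or -0.21 without cKO replicate 3.

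None of the other genes of the list passed the test. Impact was at 58.9, 57.5 and 55.3 CPM in cKO testes, each above the control values given above (log2 fold change 0.09, SE 0.0585, edgeR adjusted p 0.585, and 0.11 without cKO replicate 3). The noncoding Airn, which silences Igf2r on the paternal copy, had a log2 fold change of -0.03 (0.01 without cKO replicate 3), and Igf2r exceeded it per length by 8.46 to 10.8 times in control and 9.58 to 10.5 times in cKO testes. Peg13, a noncoding RNA inside an intron of Trappc9, had 0.14, and 0.16 with that library left out. Trappc9 itself, a vesicle trafficking subunit, had -0.01 and then 0.02. Dcn, the matrix proteoglycan decorin, had -0.09 and then -0.07, and Zrsr1, a relative of splicing factors, -0.03 and then -0.05. Inpp5f, a phosphoinositide phosphatase, had -0.10 (SE 0.201), and -0.32 when cKO replicate 3 was left out. Magel2, a partner of ubiquitin ligases, had 0.09 and then 0.15, and Mkrn3, a ubiquitin ligase, -0.01 and then -0.10. Nap1l5, with 2 to 19 counts a library, completed the list at -0.48 (SE 0.546), which was -0.12 without cKO replicate 3.

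Imprinted genes outside the list gave few calls as well. Of 45 further imprinted genes, 44 were in the table and 36 were tested. edgeR and limma-voom each called 0 of them, where they called 0.0385% and 0.0449% of all genes. With an unadjusted edgeR p under 0.05 there were 3 higher and 3 lower, beside 5.56% and 5.8% of all genes. The median log2 fold change was 0.0094 (0.025 without cKO replicate 3), with 19 above 0. DESeq2 called 1, Atp10a, a phospholipid-transporting ATPase, where it called 0.779% of all genes. The DESeq2 adjusted p of Atp10a was 0.0471, and it ranged from 0.00316 to 0.620 with single samples left out. Atp10a was at 20.5, 28.8 and 29.5 CPM in control and at 21.5, 13.4 and 17.3 CPM in cKO testes, with an overlap at control replicate 1 (log2 fold change -0.61, SE 0.179, edgeR adjusted p 0.377, and -0.60 without cKO replicate 3).

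Of 25 factors that set, keep, read or erase imprints, 23 were tested and edgeR, DESeq2 and limma-voom each called 0. Over all genes these tools called 0.0385%, 0.779% and 0.0449%, in that order. The median log2 fold change of the factors was -0.0044 (-0.0075 without cKO replicate 3). At an unadjusted edgeR p under 0.05, 0 were higher and 3 were lower, beside 5.56% and 5.8% of all genes. The 3 were Dppa3, Tet1 and Eed. Dppa3, a protector of methylation that marks germ cells, was at 74.7, 104.7 and 83.5 CPM in control and at 51.7, 20.4 and 39.2 CPM in cKO testes (log2 fold change -1.24, SE 0.271, edgeR adjusted p 0.377, and -1.28 without cKO replicate 3). Its DESeq2 adjusted p was 0.0883 on all samples. DESeq2 called it when cKO replicate 1 (0.00664) or cKO replicate 2 (9.41e-07) was left out, and its adjusted p reached 0.717 without control replicate 2. Tet1 and Eed had log2 fold changes of -0.41 and -0.24, and -0.40 and -0.27 without cKO replicate 3. The list of 10 germ cell markers, which also holds Dppa3, was lower too. All 10 had a log2 fold change below 0, with a median of -0.92 (-0.88 without cKO replicate 3). Their summed level was 422 to 693.5 CPM in control and 191.8 to 433.7 CPM in cKO testes. DESeq2 called 2 of these 10, where it called 0.779% of all genes, and edgeR called 0, where it called 0.0385%. No germ cell marker was at 0 in all samples.

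The imprinted genes as a whole stayed near the control mean in cKO replicates 1 and 2 and lay slightly above it in cKO replicate 3. Their mean log2 CPM difference from the control mean was -0.0067, -0.014 and 0.094 in cKO replicates 1 to 3 and between -0.0048 and 0.0069 in the controls. Over the same cKO samples, the germ cell markers were at -0.49, -1.43 and -0.74, and the 6 pre-granulosa markers at 0.31, 0.30 and 2.41. The 8 Sertoli cell markers had a median log2 fold change of -0.090 (-0.0085 without cKO replicate 3), the 5 fetal Leydig cell markers -0.31 (-0.045), the 6 interstitial markers 0.031 (0.032), the 5 tested of 6 mesonephric markers 0.51 (0.32), the 5 endothelial markers -0.0069 (0.029) and the 6 pre-granulosa markers 1.02 (0.30), each with the value without that library in parentheses. The pre-granulosa markers summed to 82.81 to 99.99 CPM in control and 97.3 to 268.1 CPM in cKO testes. edgeR called 0 markers in each of these lists and DESeq2 called none besides the 2 germ cell markers. Over all genes edgeR called 0.0385% and DESeq2 0.779%. At an unadjusted edgeR p under 0.05, 4 pre-granulosa, 3 mesonephric, 1 Sertoli and 1 interstitial marker were higher. Lower at that p were 9 germ cell markers and 1 endothelial marker. Over all tested genes, 5.56% were higher and 5.8% were lower at that p. No list held a marker at 0 in all samples. Whether these cell types had a part in the values of Peg10, Igf2, Peg3, Zim1, Cdkn1c or Ascl2 was not tested.

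**Figure D4:**
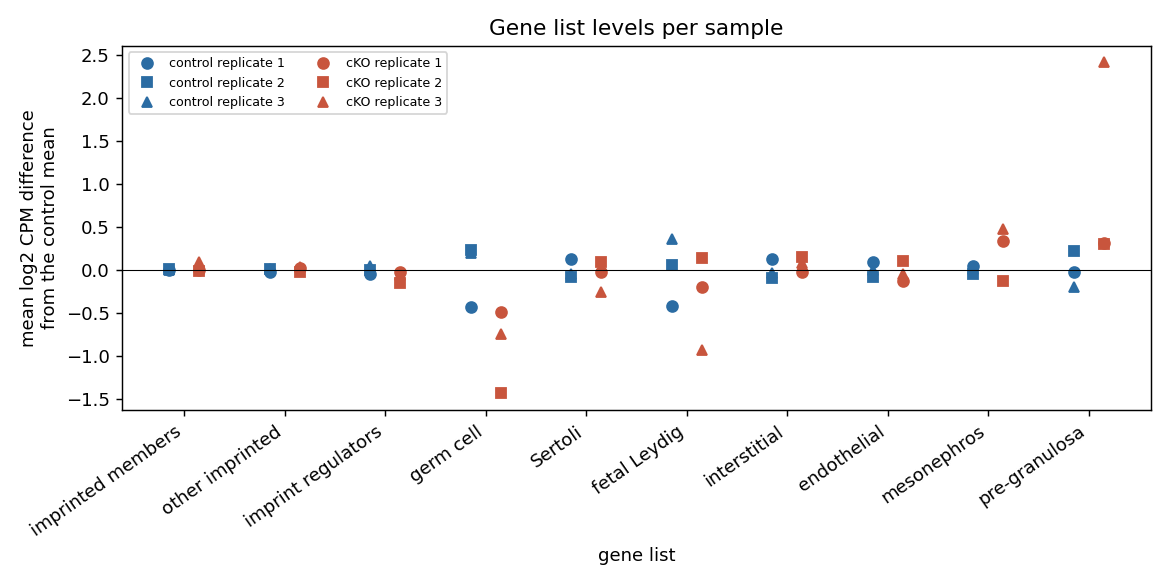
Mean log2 CPM difference from the control mean for each gene list in each sample, blue for control and red for cKO, with the shape giving the replicate. The imprinted genes and the other imprinted genes stay near 0 in all samples, and the imprint regulators are lowest in cKO replicate 2, at -0.15. The germ cell list is low in the cKO samples and in control replicate 1, and the pre-granulosa list stands at 2.41 in cKO replicate 3.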

How the data were processed

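RNA was measured by stranded mRNA sequencing of whole E12.5 testes. The deposited values are raw counts of reads per RefSeq gene, which the authors made by aligning reads to mm10 with STAR 2.5 and counting by strand with featureCounts of Subread 1.5.0-p1. Groups and replicate numbers come from the sample titles, no per-sample column was left out, and p-values measure the spread between these pools.

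Counts were filtered with filterByExpr (minimum count 10), scaled by TMM and tested with the edgeR 4.0.16 quasi-likelihood test in R 4.3.3 on all 6 samples without covariates. The fit used all genes, and p-values were adjusted over the 15577 tested. CPM used TMM-scaled library sizes. The SE was derived from the F statistic. DESeq2 1.42.0 (the authors' tool) and limma 3.58.1 (voom) were alternatives, with RLE size factors, other filters, thinning to the smallest library, a block for the replicate number, and each sample left out in turn. DESeq2 without each sample was added after the data were seen. Exon lengths came from GENCODE transcripts matched to RefSeq and clipped to the table's gene spans. The tests were first tested on simulated data.

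The 38 genes and all lists were chosen with earlier results of these data known. Every member could be named. Values in every sample were due for genes called by edgeR or DESeq2, those at an unadjusted p under 0.05, the 10 highest per length, Igf2, H19 and genes under the filter, and other genes were shown to describe their clusters. Outside the list, the rule named Ppp1r3c, Xist, Fst and, in each further list, the gene of lowest p and any called. Tet1, Eed and Snurf were named after their values were seen. Strand-specific counting separates antisense partners such as Igf2r and Airn, whereas Peg13 lies within Trappc9 on its strand and shares no exon with it.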

Additional observations from a re-analysis of the deposited data

How the results depend on the processing

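With 3 pools a group, 1 of which stood apart, differences of the size seen here lie near the spread between samples, and genes under about 1 CPM could not be placed. edgeR called 0 of the imprinted genes under every setting, including each sample left out. DESeq2 called 1 of them on all samples and 0 to 3 with single samples left out: it called 0 when control replicate 2 or cKO replicate 3 was left out, and 3 when cKO replicate 1 was (Peg10, Igf2 at an adjusted p of 0.0129 and Peg3 at 0.0352). The share of all genes that DESeq2 called with a sample left out was not worked out, so these counts have no background. On all samples DESeq2 also called 1 of the other imprinted genes. With single samples left out, between 4 imprinted genes (without control replicate 2, 11.1% beside 7.0% of all genes) and 10 (without cKO replicate 1, 27.8% beside 13.8%) had an unadjusted p under 0.05. The number whose groups did not overlap was 7 to 16, and in groups of 2 against 3 this is more frequent for every gene. It was 7 without cKO replicate 3 (19.4% beside 22.8% of all genes). Without cKO replicate 1 it was 16 (44.4% beside 30.8%), and without control replicate 1 it was 12 (33.3% beside 33.0%). The median log2 fold change ranged from 0.013 to 0.077 with single samples left out. On all samples it was 0.0085 with no filter on low counts, 0.061 with the stricter filter and 0.072 with thinned libraries. The median of the maternally expressed genes lay on either side of 0, from -0.0040 with limma-voom to 0.038 with thinned libraries. The edgeR log2 fold change of Peg10 ranged from 0.26 to 0.44 with single samples left out (adjusted p 0.147 to 0.702). With a block for the replicate number its edgeR adjusted p was 0.777.

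The replicate numbers did not pair the samples (correlations of deviations -0.203, -0.266 and -0.13 for numbers 1 to 3). With the replicate block, 0 imprinted genes were called and 5 lay at an unadjusted p under 0.05 (13.9% beside 6.32% of all genes). The groups of 7 did not overlap (19.4% beside 15.6% of all genes), and the median log2 fold change was 0.024.

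Some log2 fold changes, none of them called by edgeR, changed sign. With limma-voom Rtl1 was -0.018, Mkrn3 0.010 and Airn 0.0012, with the stricter filter Rtl1 was -0.0018, and with thinned libraries Rtl1 was -0.012 and Mkrn3 0.084. With single samples left out in edgeR or DESeq2, the ranges were Mirg -0.21 to 0.019, Dlk1 -0.023 to 0.12, Rtl1 -0.21 to 0.22, Magel2 -0.021 to 0.27, Mkrn3 -0.10 to 0.071, Phlda2 -0.72 to 0.90, Slc22a18 -0.12 to 0.090, Igf2r -0.029 to 0.044, Airn -0.085 to 0.051, Plagl1 -0.16 to 0.0039, Zrsr1 -0.060 to 0.016, Nnat -0.074 to 0.095, Inpp5f -0.32 to 0.088, Trappc9 -0.042 to 0.040 and Xist -0.48 to 8.05. The cause was not tested. The sign of Xist turned when cKO replicate 3, which held nearly all of its counts, was left out.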
